A study of Homo sapiens with 12 samples.

Results

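The genes of 10 integrin subunits of white blood cells were followed across 2 human acute myeloid leukaemia cell lines in which the chromatin remodeler CHD4 was depleted. The 10 genes are ITGAM, ITGAX, ITGAL, ITGB2, ITGB1, ITGA4, ITGA5, ITGA6, ITGB7 and ITGAE, and every probe set annotated to 1 of these symbols alone was taken, which gave 18 of the 19064 probe sets that name a single gene, out of 11963 genes in all. ITGB1 had 5 probe sets, ITGA4 had 3, ITGAM and ITGA6 had 2 each, and each of the other genes had 1. All 10 genes were measured, and no filter on dim signals was applied, so all 18 probe sets entered each test.

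U937 is a line of monocytic character from a histiocytic lymphoma, labelled here as an AML line, and MV4-11 is a myelomonocytic line with an MLL fusion. Both were grown in RPMI with serum and antibiotics and carried a lentiviral pRRL.H1.shRNA vector that expresses GFP, in the controls as well as in the depleted cells. The vector held either a scrambled hairpin or a hairpin whose target the sample labels spell CDH4 and the series description CHD4. This made 4 groups of 3 arrays: U937 scrambled, U937 CHD4 shRNA, MV4-11 scrambled and MV4-11 CHD4 shRNA. The series description calls the triplicates biological, and asks how loss of CHD4 alters the chromatin and transcriptome of such cells. The labels do not say how many hairpins were used or whether transduced cells were sorted.

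Values are log2 RMA signals of Affymetrix probe sets, in which 1 unit is a doubling of signal. RMA is a method that corrects background, makes the distribution of all arrays alike and summarises the probes of a set. Signals of all probe sets ran from 2.54 to 15.05, with array medians from 6.96 to 7.01. Signals of different probe sets are not on a common scale, so each is compared with itself across arrays. Cells were measured in bulk, so fewer cells with a transcript and less of it per cell cannot be told apart.

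Integrins are cell surface receptors made of 1 alpha and 1 beta chain, which bind matrix proteins or receptors on other cells and link them to the actin skeleton. Leukocytes keep them in a resting, bent form until talin and kindlin bind the beta chain tail. ITGB2 (CD18) is the beta chain shared by ITGAL (CD11a, in LFA-1), ITGAM (CD11b, in Mac-1) and ITGAX (CD11c), which bind ICAM proteins and, for ITGAM and ITGAX, complement fragment iC3b. ITGB1 pairs with ITGA4 in a receptor for VCAM1 and fibronectin, with ITGA5 in the fibronectin receptor and with ITGA6 in a laminin receptor. ITGB7 pairs with ITGA4, or with ITGAE (CD103), which binds E-cadherin. CD11b and CD11c are common surface markers of myeloid maturation, and ITGA4 and ITGB1 hold blasts to the bone marrow stroma.

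Promoter sequence is shown for the 4 genes whose probe sets moved most clearly and that the RefSeq promoter table of GRCh38.p14 holds, to let the start regions of ITGAM, ITGB1 and ITGA5, where signals were higher, stand beside that of ITGA6, where they were lower. Of the 10 genes, 7 were found in that table. ITGAX, ITGAL and ITGB2 were not. Each line gives the 250 bases before the outermost annotated start, read 5′ to 3′ on the gene's strand. Capitals mark matches, on either strand, to GAGGAA (the core of a PU.1-type ETS site), TGTGGT (RUNX), TGANTCA (AP-1) or GGGCGG (GC box), and no match in these 4 windows overlapped another. ITGAM spans chr16:31259725-31259974 on the plus strand, ITGB1 chr10:32958231-32958480 on the minus strand, ITGA5 chr12:54419267-54419516 on the minus strand and ITGA6 chr2:172427086-172427335 on the plus strand.
ITGAM: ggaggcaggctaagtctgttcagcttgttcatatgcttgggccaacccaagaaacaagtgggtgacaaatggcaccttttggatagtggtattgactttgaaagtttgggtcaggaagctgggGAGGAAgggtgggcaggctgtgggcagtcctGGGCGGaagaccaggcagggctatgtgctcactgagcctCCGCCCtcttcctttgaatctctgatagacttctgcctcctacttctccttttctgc
ITGB1: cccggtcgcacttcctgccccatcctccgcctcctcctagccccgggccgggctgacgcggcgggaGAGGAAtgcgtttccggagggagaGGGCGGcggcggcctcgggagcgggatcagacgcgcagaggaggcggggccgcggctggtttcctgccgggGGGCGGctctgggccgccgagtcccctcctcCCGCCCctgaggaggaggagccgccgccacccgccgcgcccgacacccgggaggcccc
ITGA5: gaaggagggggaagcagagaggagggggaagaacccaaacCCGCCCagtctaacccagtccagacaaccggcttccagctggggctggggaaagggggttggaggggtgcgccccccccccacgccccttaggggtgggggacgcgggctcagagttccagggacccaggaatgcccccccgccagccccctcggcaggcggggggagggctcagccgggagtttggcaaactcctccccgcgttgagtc
ITGA6: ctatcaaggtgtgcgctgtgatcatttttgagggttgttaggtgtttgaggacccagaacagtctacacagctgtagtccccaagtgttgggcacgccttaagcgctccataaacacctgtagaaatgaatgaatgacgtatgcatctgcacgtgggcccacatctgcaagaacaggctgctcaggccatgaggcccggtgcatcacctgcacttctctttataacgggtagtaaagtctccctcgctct

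The ITGAM window held GAGGAA starting 127 bases before the start and GC boxes at 96 and 57 bases before it. The ITGB1 window held GAGGAA at 184 bases and GC boxes at 160, 89 and 58 bases. ITGA5 held 1 GC box at 210 bases, and the ITGA6 window held no match to any of the 4 motifs. ITGA6 and ITGB1 each have 2 annotated starts there, and only the outermost was read. Over the 35116 promoters of the table, GAGGAA was found in 23.6% of windows of the same length, TGTGGT in 11.0%, TGANTCA in 6.57% and GGGCGG in 42.6%, so the matches are common ones. GC content ran from 50.8% in ITGA6 and 53.2% in ITGAM to 70.0% in ITGA5 and 78.4% in ITGB1. In the RefSeq gene order ITGAM lies between PYDC1 and ITGAX on chromosome 16, and ITGAX lies between ITGAM and ITGAD, so these 2 subunit genes are direct neighbours. ITGAE overlaps P2RX5 and HASPIN on chromosome 17, ITGA4 overlaps CERKL on chromosome 2 and ITGB7 overlaps ZNF740 on chromosome 12.

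CHD4 itself was lower in every array labelled with its hairpin. On 201183_s_at the scrambled arrays read 10.31, 10.38 and 10.71 in U937 and 10.65, 10.69 and 10.68 in MV4-11, and the hairpin arrays 8.23, 8.13 and 8.45 and then 8.79, 8.85 and 8.39. Its 3 probe sets changed by -1.75 to -2.20 in U937 and by -1.76 to -2.00 in MV4-11, and the groups did not overlap in any of them. The limma adjusted p lay between 1.25e-05 and 6.00e-05. The hairpin groups are therefore called CHD4 shRNA here. Arrays lay close to their group means, at root mean square distances of 0.12 to 0.21 over all probe sets, with MV4-11 CHD4 shRNA replicates 2 and 3 farthest out.

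Marker signals are described against the array median, which cannot establish an identity, since probe sets differ in scale. Of 16 measured myeloid markers 11 stood above the median in U937 scrambled, U937 CHD4 shRNA and MV4-11 scrambled cells, and 12 in MV4-11 CHD4 shRNA cells. Of 15 lymphoid markers 3 stood above it in the first 3 groups and 5 in MV4-11 CHD4 shRNA cells. Of 9 erythroid and megakaryocytic markers 2 did in each group, and of 11 fibroblast and epithelial markers 1 did, or 2 in U937 CHD4 shRNA cells.

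With CHD4 shRNA, 5 of the 18 integrin probe sets changed in U937 and 4 in MV4-11, at a limma adjusted p under 0.05. In U937 ITGAX, ITGA5 and the main probe set of ITGB1 rose and both probe sets of ITGA6 fell, so 3 were higher, where 1.86% of all 22215 probe sets were, and 2 lower, where 2.65% were. In MV4-11 ITGAM and ITGB1 rose and both ITGA6 probe sets fell, 2 higher against 3.88% of all probe sets and 2 lower against 3.59%. At an unadjusted p under 0.05 there were 9 of 18 in each line, against 3785 and 4954 of the 22215. The arrays of the compared groups did not overlap for 10 of 18 integrin probe sets in U937, where 24.2% of all probe sets were, and for 7 of 18 in MV4-11, where 23.8% were. The median integrin change was 0.14 in U937 and 0.05 in MV4-11, beside -0.00 and -0.03 over all probe sets. An exact permutation of 3 arrays against 3 cannot give a p below 0.1, so the calls rest on limma, which pools the spread over the 4 groups.

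**Figure D1:**
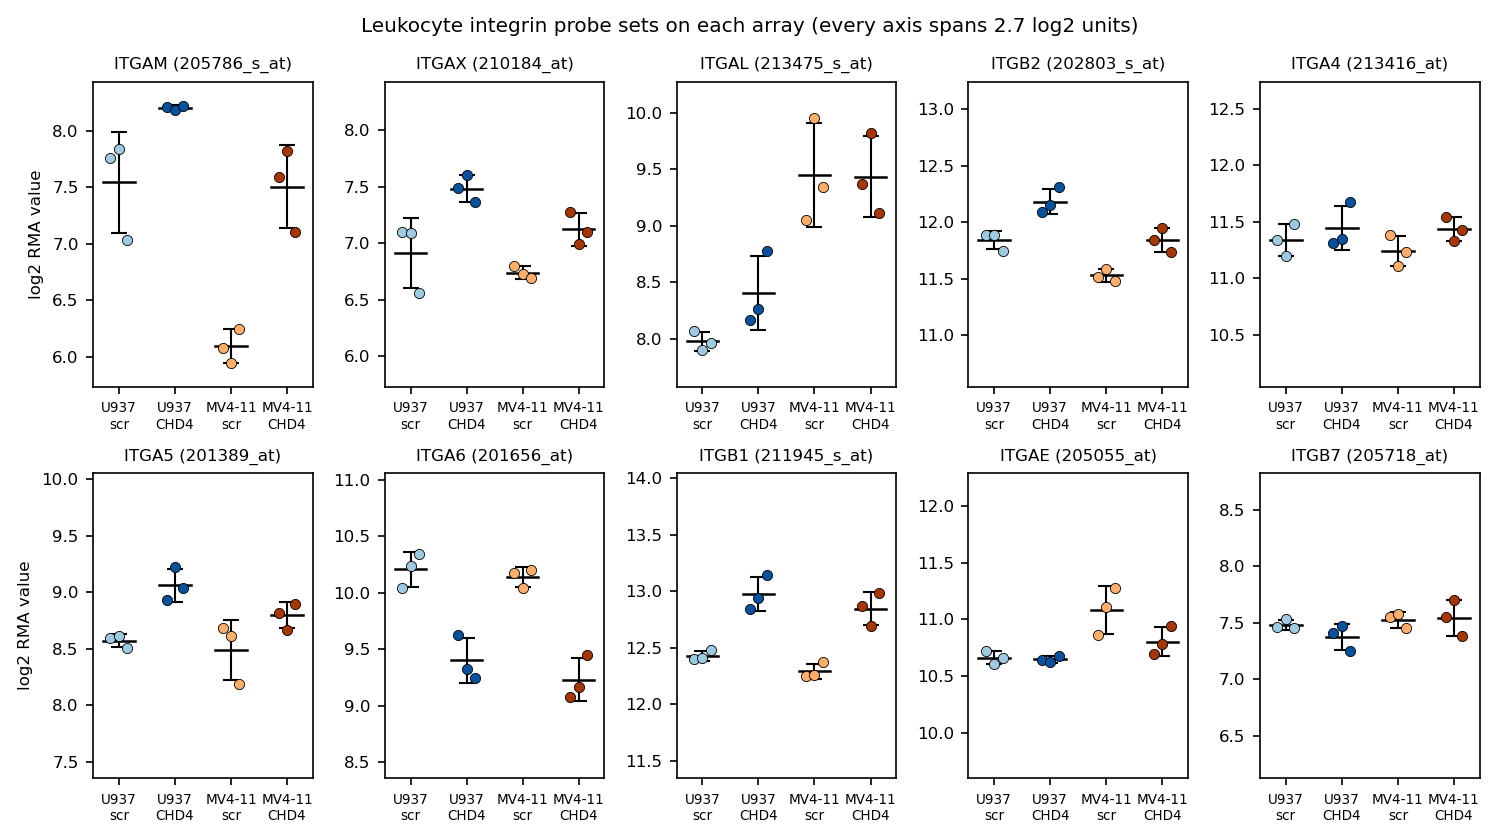
Log2 RMA values of the brightest probe set of each of the 10 integrin genes, by group (scr, scrambled shRNA; CHD4, CHD4 shRNA). Points are the 3 arrays of a group, horizontal lines their mean and bars 1 SD, and every axis spans the same number of log2 units from its own origin. ITGAM, ITGAL and ITGA6 had the widest spread of group means, at 2.11, 1.47 and 0.97, and ITGA4 and ITGB7 the narrowest, at 0.20 and 0.17.

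ITGAM, the alpha chain of Mac-1, rose in MV4-11 and had the widest spread over the 4 groups of all 10 genes. On its probe set 205786_s_at the MV4-11 scrambled arrays read 6.08, 5.95 and 6.25 and the CHD4 shRNA arrays 7.59, 7.82 and 7.10. All 3 depleted arrays were above all 3 controls, and the third was the lowest of them. The log2 change was 1.41 (SE 0.21), which is 2.66-fold, with a limma adjusted p of 0.00212. Without 1 array at a time it lay between 1.25 and 1.61, and the call was kept in each of the 12 such fits. In U937 the scrambled arrays read 7.76, 7.84 and 7.03 and the CHD4 shRNA arrays 8.21, 8.18 and 8.22. Here too the groups did not overlap, but the third control stood well below the other two. The log2 difference of 0.66 (SE 0.21, 1.58-fold) did not pass, with an adjusted p of 0.0977. Without U937 scrambled replicate 3 it was 0.40 (adjusted p = 0.290), and without MV4-11 CHD4 shRNA replicate 3, an array that enters only through the pooled spread, it passed (adjusted p = 0.048).

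The second ITGAM probe set, 205785_at, did not move in the same way. It read 6.55, 6.71 and 6.39 in U937 scrambled and 6.61, 6.69 and 6.30 in U937 CHD4 shRNA cells, and 6.36, 6.34 and 6.35 in MV4-11 scrambled and 6.35, 5.86 and 6.51 in MV4-11 CHD4 shRNA cells. The groups overlapped in both lines, and the differences of -0.02 in U937 and -0.11 in MV4-11 did not pass (adjusted p = 0.979 and 0.755). The 2 ITGAM probe sets therefore disagree, and the rise of ITGAM rests on 1 of them. With both averaged the difference was 0.65 in MV4-11, still past the threshold (adjusted p = 0.00851), and 0.32 in U937 (0.179).

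ITGAX, the other alpha chain of this pair of neighbouring genes, rose in U937. On 210184_at the U937 scrambled arrays read 7.10, 7.09 and 6.56 and the CHD4 shRNA arrays 7.49, 7.60 and 7.36. All 3 depleted arrays were above the controls, and the third control was again the lowest of its group. The change was 0.57 (SE 0.14, 1.48-fold, limma adjusted p = 0.037). Of 12 fits with 1 array left out, 5 no longer passed: without U937 CHD4 shRNA replicates 1, 2 and 3 (adjusted p = 0.0822, 0.150 and 0.065), without U937 scrambled replicate 3 (0.107, at a change of 0.39) and without MV4-11 scrambled replicate 2 (0.0553). It was also lost in a fit of the U937 arrays alone (0.0693). In MV4-11 the scrambled arrays read 6.80, 6.73 and 6.69 and the CHD4 shRNA arrays 7.28, 6.99 and 7.10. The groups did not overlap, and the difference of 0.38 (SE 0.14) had an adjusted p of 0.117. It passed with a replicate block within each line (0.0277) and without U937 scrambled replicate 3 (0.0415).

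ITGB2, the beta chain that ITGAM, ITGAX and ITGAL need to reach the surface, was higher by a similar and small amount in both lines and stayed just outside the threshold. On 202803_s_at U937 read 11.89, 11.89 and 11.75 with the scrambled hairpin and 12.09, 12.15 and 12.31 with CHD4 shRNA. MV4-11 read 11.52, 11.59 and 11.48 and then 11.84, 11.95 and 11.74. In neither line did the groups overlap, and the third scrambled array of U937 was the lowest of its group for ITGB2, ITGAM and ITGAX alike. The differences were 0.34 (SE 0.09, 95% interval 0.14 to 0.54, adjusted p = 0.0613) in U937 and 0.31 (SE 0.09, 95% interval 0.11 to 0.52, adjusted p = 0.0633) in MV4-11. Several alternatives moved ITGB2 across the line. In U937 it passed in 6 of them, with an adjusted p from 0.0352 with quantile normalization to 0.0489 with 1 probe set per gene. In MV4-11 it passed in 6, which were 5 other settings and the fit without MV4-11 CHD4 shRNA replicate 3 (0.035), and the block fitted to MV4-11 arrays by number gave an adjusted p of 0.0404.

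ITGAL, the alpha chain of LFA-1, did not pass in either line. On 213475_s_at U937 read 8.07, 7.90 and 7.96 and then 8.17, 8.26 and 8.78 with CHD4 shRNA. MV4-11 read 9.05, 9.95 and 9.34 and then 9.37, 9.82 and 9.11. The groups were just apart in U937 and overlapped fully in MV4-11. The differences were 0.43 (SE 0.23, 95% interval -0.07 to 0.92, adjusted p = 0.383) and -0.01 (SE 0.23, 95% interval -0.51 to 0.48, adjusted p = 0.981).

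ITGB1, the common beta chain of the matrix receptors, rose by the same amount in both lines. On 211945_s_at U937 read 12.40, 12.41 and 12.48 with the scrambled hairpin and 12.84, 12.94 and 13.14 with CHD4 shRNA. MV4-11 read 12.25, 12.26 and 12.37 and then 12.87, 12.69 and 12.98. Every depleted array was above every control of its line. The change was 0.54 (SE 0.10, 1.46-fold, limma adjusted p = 0.0104) in U937 and 0.55 (SE 0.10, 1.47-fold, adjusted p = 0.00753) in MV4-11, and both calls were kept in all 12 fits without 1 array. The other 4 ITGB1 probe sets, 216178_x_at, 216190_x_at, 215878_at and 215879_at, lay between the 0.234 and the 8.71 percentile of mean signal and did not pass in either line. Among them 216178_x_at had a difference of 0.29 and 216190_x_at one of 0.28 in U937 (adjusted p = 0.125 and 0.106), and 0.09 and 0.10 in MV4-11. Where the 5 probe sets were averaged, the ITGB1 calls were lost, at 0.24 in U937 (adjusted p = 0.0885) and 0.08 in MV4-11 (0.560).

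ITGA6, the laminin-binding alpha chain, was the one gene of the 10 that fell, and both of its probe sets fell in both lines. On 201656_at U937 read 10.04, 10.24 and 10.34 and then 9.63, 9.33 and 9.25 with CHD4 shRNA, and MV4-11 read 10.18, 10.04 and 10.20 and then 9.08, 9.17 and 9.45. On 215177_s_at the U937 values were 9.98, 9.91 and 9.99 and then 9.15, 8.75 and 8.78, and the MV4-11 values were 9.84, 9.41 and 9.35 and then 8.33, 8.34 and 8.30. In all 4 comparisons every depleted array lay below every control. The changes on 201656_at were -0.80 (SE 0.13, 1.75-fold lower, limma adjusted p = 0.00403) and -0.91 (SE 0.13, 1.87-fold lower, adjusted p = 0.0017). Those on 215177_s_at were -1.07 (SE 0.13, 2.09-fold lower, adjusted p = 0.000901) and -1.21 (SE 0.13, 2.31-fold lower, adjusted p = 0.00039). The 4 ITGA6 calls were kept in all fits without 1 array and in every other alternative at the same threshold, and the direction was the same in all of them.

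ITGA5, the alpha chain of the fibronectin receptor, rose in U937 at the edge of the threshold. On 201389_at the scrambled arrays read 8.60, 8.61 and 8.51 and the CHD4 shRNA arrays 8.93, 9.22 and 9.04. The groups were well apart, with a change of 0.49 (SE 0.13, 1.40-fold, limma adjusted p = 0.0495). Of 12 fits with 1 array left out, 8 no longer passed. These were the fits without any 1 of the 6 U937 arrays, with an adjusted p of 0.126, 0.112 and 0.151 for scrambled replicates 1 to 3 and 0.0545, 0.200 and 0.116 for CHD4 shRNA replicates 1 to 3, and those without MV4-11 CHD4 shRNA replicate 1 (0.074) or MV4-11 scrambled replicate 2 (0.0629). In MV4-11 the arrays read 8.68, 8.61 and 8.19 and then 8.82, 8.67 and 8.90, which overlapped by 1 pair of arrays. The difference of 0.30 (SE 0.13, adjusted p = 0.182) did not pass.

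ITGA4, the alpha chain of the VCAM1 receptor, did not pass on any of its 3 probe sets in either line, and the probe sets differed in sign. On 213416_at, the brightest, U937 read 11.34, 11.20 and 11.48 and then 11.31, 11.35 and 11.67, and MV4-11 read 11.38, 11.11 and 11.23 and then 11.54, 11.33 and 11.43. The groups overlapped in both lines, at differences of 0.10 (SE 0.12, adjusted p = 0.757) and 0.19 (SE 0.12, adjusted p = 0.385). On 205884_at the differences were 0.18 in U937 and 0.29 in MV4-11, and on 205885_s_at they were -0.20 and -0.38. The MV4-11 arrays of 205884_at did not overlap between groups, at 9.52, 9.34 and 9.30 against 9.69, 9.68 and 9.67. On 205885_s_at MV4-11 read 9.78, 9.75 and 10.07 and then 9.40, 9.19 and 9.86, and the third array of each group was the highest. In MV4-11 this last probe set passed downward where MV4-11 replicate numbers were blocked (adjusted p = 0.0464) and without CHD4 shRNA replicate 3 (0.0169, at -0.57), and 205884_at passed upward with a block within each line (0.0423). ITGA4 thus has no settled direction on this array.

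ITGB7 and ITGAE, the chains of the E-cadherin receptor, did not pass in either line. For ITGB7 on 205718_at U937 read 7.46, 7.53 and 7.45 and then 7.41, 7.47 and 7.25, and MV4-11 read 7.55, 7.58 and 7.45 and then 7.55, 7.70 and 7.38. All groups overlapped, at differences of -0.10 (95% interval -0.32 to 0.11) and 0.02 (95% interval -0.20 to 0.23). For ITGAE on 205055_at U937 read 10.72, 10.61 and 10.66 and then 10.64, 10.62 and 10.68, a difference of -0.02 (95% interval -0.25 to 0.22). MV4-11 read 10.86, 11.11 and 11.28 and then 10.69, 10.78 and 10.94, with 1 depleted array inside the control range. The MV4-11 difference of -0.28 (SE 0.11, adjusted p = 0.148) passed where MV4-11 replicate numbers were blocked (adjusted p = 0.0426).

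**Figure D2:**
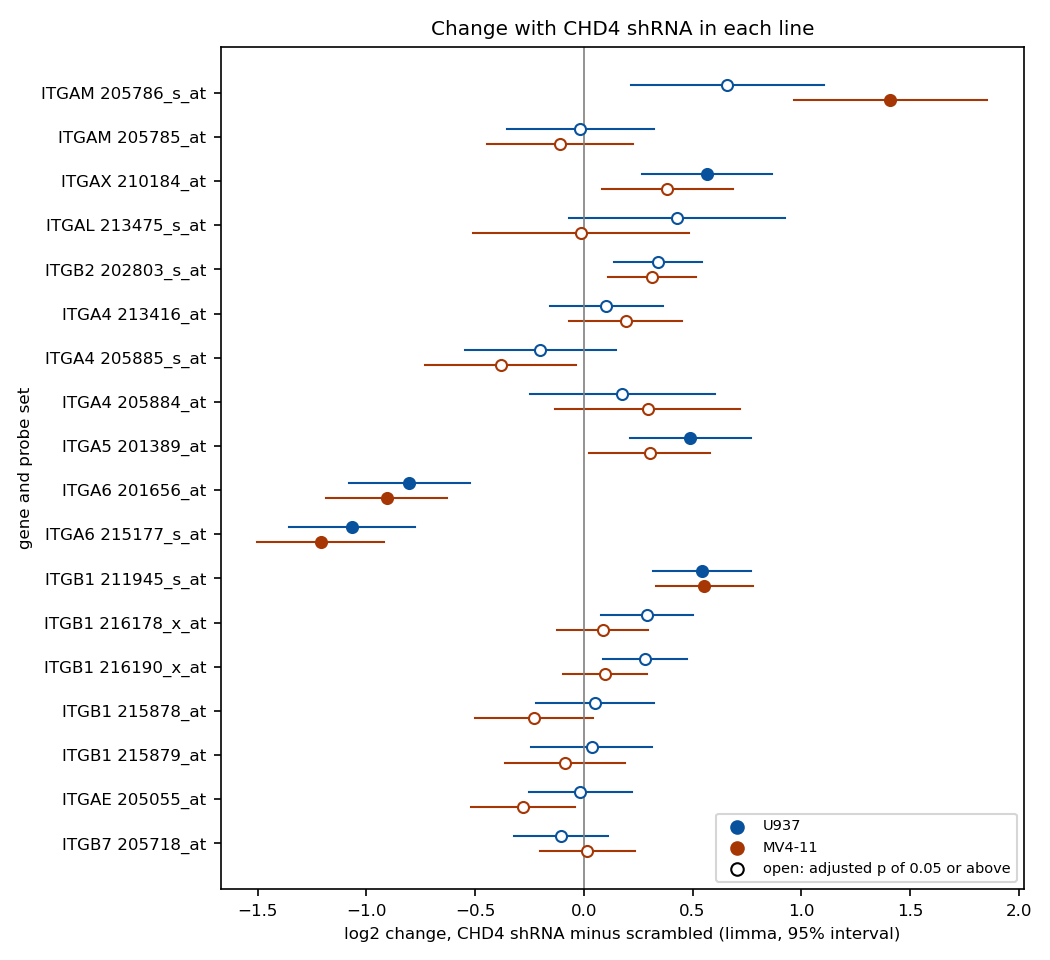
Log2 change with CHD4 shRNA for all 18 integrin probe sets, in U937 and in MV4-11, with the 95% interval from limma. Filled points had an adjusted p under 0.05 and open points did not, and the ITGA6 probe sets lie left of 0 in both lines, from -0.80 to -1.21, while ITGB1 211945_s_at lies at 0.54 and 0.55.

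The 4 MV4-11 calls come from the main fit, which held no replicate block. With arrays paired by number in a block for MV4-11 alone, 7 integrin probe sets passed there instead of 4. With a block within each line 9 did. The 3 that the first of these added were ITGB2, upward, and ITGAE and ITGA4 205885_s_at, downward. Over all 22215 probe sets the block in MV4-11 alone also raised the MV4-11 calls, to 2912, from 1659 without a block. The block within each line raised them to 3700.

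Whether the change with CHD4 shRNA differed between the lines was tested for each probe set as the MV4-11 change minus the U937 change. By limma 0 of 18 integrin probe sets passed, as did 0 of all 22215, or 0.0%, and at an unadjusted p under 0.05 there was 1 of 18, beside 979 of 22215. The 1 was ITGAM 205786_s_at, with 0.75 more in MV4-11 (SE 0.29, 95% interval 0.12 to 1.38, unadjusted p = 0.0232, adjusted p = 0.944). For ITGB1 211945_s_at the changes differed by 0.01 (95% interval -0.31 to 0.33), and for ITGA6 by -0.10 (95% interval -0.50 to 0.29) on 201656_at and -0.14 (95% interval -0.56 to 0.27) on 215177_s_at. ITGAX differed by -0.18 (95% interval -0.61 to 0.24), ITGA5 by -0.19 (95% interval -0.58 to 0.21) and ITGB2 by -0.03 (95% interval -0.31 to 0.26). The calls of ITGAM in MV4-11 alone, and of ITGAX and ITGA5 in U937 alone, are therefore not shown to be particular to a line.

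The largest differences between the lines among the 10 genes were those of ITGAL and ITGAM, alpha chains that pair with ITGB2. Between the scrambled controls 3 of 18 integrin probe sets passed, ITGAL and ITGAE higher in MV4-11, where 2.37% of all probe sets were, and ITGAM lower, where 2.08% were. The arrays of the lines did not overlap for 7 of 18, beside 25% of all probe sets. Between the CHD4 shRNA cells 2 of 18 passed, ITGAL higher, where 3.21% were, and ITGA6 215177_s_at lower, where 2.34% were, and 8 of 18 did not overlap, beside 25%. The integrin medians were -0.05 and -0.15, beside -0.04 and -0.04 over all probe sets. These comparisons use the same arrays as those of the hairpins, so their values are only set side by side.

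ITGAL stood 1.47 higher in MV4-11 than in U937 controls (SE 0.23, 2.77-fold, limma adjusted p = 0.00301) and 1.03 higher between the depleted cells (SE 0.23, 2.04-fold, adjusted p = 0.0217). The first call was kept in all 12 fits without 1 array. The second was lost without U937 CHD4 shRNA replicates 1 and 2 (adjusted p = 0.0963 and 0.0955) and without MV4-11 CHD4 shRNA replicates 1 and 2 (0.0575 and 0.0751), and with only the groups compared (0.0588). ITGAM 205786_s_at ran the other way, at -1.45 between the controls (SE 0.21, 2.73-fold lower in MV4-11, adjusted p = 0.00152), kept in all 12 such fits. Between the depleted cells its difference was -0.70 (SE 0.21, adjusted p = 0.0666), and it passed without U937 scrambled replicate 3 (0.0255) and with the 2 ITGAM probe sets averaged (0.037, at -0.50). Averaged, the control difference was -0.825 (0.0026). On 205785_at the lines differed by -0.20 between controls (adjusted p = 0.536) and by -0.29 between depleted cells (0.273), and neither passed. In order of group mean ITGAM 205786_s_at ran from MV4-11 scrambled at 6.09 ± 0.15 through MV4-11 CHD4 shRNA at 7.50 ± 0.37 and U937 scrambled at 7.54 ± 0.45 to U937 CHD4 shRNA at 8.20 ± 0.02 (SD, n = 3 each). The middle groups, depleted MV4-11 cells and U937 controls, overlapped on this probe set, and the difference between them was not tested.

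ITGAE was higher in the MV4-11 controls by 0.42 (SE 0.11, 1.34-fold, adjusted p = 0.0491), a call lost in 10 of 12 fits without 1 array. Without U937 scrambled replicates 1 to 3 the adjusted p was 0.115, 0.160 and 0.0959, and without U937 CHD4 shRNA replicates 1 to 3 it was 0.0698, 0.0695 and 0.0555. Leaving out MV4-11 scrambled replicates 2 and 3 gave 0.152 and 0.198, and without MV4-11 CHD4 shRNA replicates 1 and 2 it was 0.0611 and 0.0511. ITGA6 215177_s_at was lower in depleted MV4-11 than in depleted U937 cells by a difference of -0.57 (SE 0.13, adjusted p = 0.0287). That call was lost without U937 CHD4 shRNA replicates 1 and 2 (0.118 and 0.0564) and MV4-11 CHD4 shRNA replicates 1 and 2 (0.0798 and 0.0676), while 201656_at, at -0.17, did not pass (0.442). ITGB2 was lower in MV4-11 by -0.31 between controls (adjusted p = 0.0838) and -0.34 between depleted cells (0.054), without overlap of arrays in either. The second of these passed in 5 of 8 other settings, with an adjusted p from 0.0211 with quantile normalization to 0.0487 with 1 probe set per gene. ITGB1, ITGA4, ITGA5, ITGAX and ITGB7 did not pass in either of these comparisons.

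**Figure D3:**
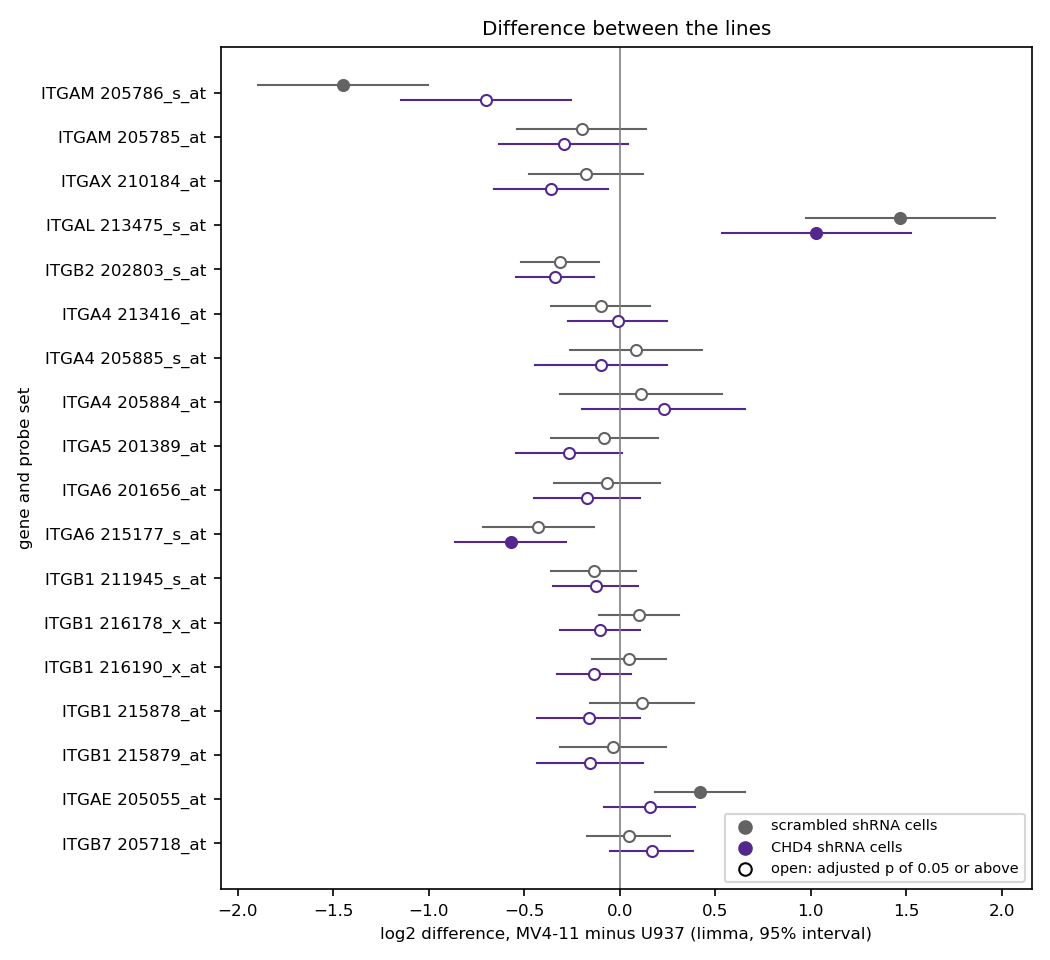
Log2 difference between the lines, MV4-11 minus U937, for the 18 integrin probe sets, in scrambled shRNA and in CHD4 shRNA cells, with the 95% interval from limma. Filled points had an adjusted p under 0.05, with ITGAL at 1.47 and 1.03 right of 0 and ITGAM 205786_s_at at -1.45 and -0.70 left of it.

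The wider integrin pathway was read in 5 lists with 106 genes, of which 93 were measured, each gene by its brightest probe set. The background for such calls was 2.29% of 11963 genes higher and 3.23% lower in U937, and 4.39% higher and 4.36% lower in MV4-11. Of the 26 calls named below, 7 were kept in every fit without 1 array, and the others are given with the arrays that decided them. The median change over all genes was -0.00 in U937 and -0.03 in MV4-11.

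Of 13 other integrin subunits measured, 2 rose and 0 fell in each line, with medians of 0.00 in U937 and 0.07 in MV4-11. ITGA2B, the alpha chain of the platelet fibrinogen receptor, rose by 1.30 in U937 (SE 0.20, adjusted p = 0.00343) and by 0.97 in MV4-11 (SE 0.20, adjusted p = 0.0129). A further ITGA2B probe set, 206494_s_at, rose by 1.97 and 1.78, and 216956_s_at and 216966_at did not pass. ITGA7, a laminin-binding chain best known in muscle, rose by 0.75 (SE 0.10, adjusted p = 0.00134) and by 0.41 (SE 0.10, adjusted p = 0.0274), and its other probe set, 209663_s_at, rose by 0.64 in U937 with a difference of 0.27 in MV4-11 that did not pass. The MV4-11 call of ITGA2B was lost without MV4-11 scrambled replicates 2 or 3 (adjusted p = 0.0542 to 0.055). That of ITGA7 was lost without MV4-11 scrambled replicates 1 or 3 or CHD4 shRNA replicates 1 or 2 (0.0652 to 0.114). Beside ITGA2B, 0 of the 9 measured erythroid and megakaryocytic markers passed in either line, and their summed linear signal ran from 876 to 1018 in U937 scrambled, 891 to 1086 in U937 CHD4 shRNA, 863 to 887 in MV4-11 scrambled and 769 to 897 in MV4-11 CHD4 shRNA cells.

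Of 22 activators and cytoplasmic adaptors measured, 1 rose and 1 fell in U937 (median 0.07), and 5 rose and 1 fell in MV4-11 (median 0.04). SIPA1, which switches off the integrin activator RAP1, rose by 0.59 in both lines (SE 0.12, adjusted p = 0.0124 in U937 and 0.00975 in MV4-11), and the U937 call was lost without scrambled replicate 1 or CHD4 shRNA replicate 3 (0.0589 to 0.0623). FERMT1, a kindlin of epithelia, fell by 0.97 in U937 and by 0.82 in MV4-11 on the log2 scale (SE 0.20, adjusted p = 0.0139 and 0.0236). Its second probe set, 60474_at, changed by -0.99 and -0.87. The FERMT1 call was lost without U937 scrambled replicates 1 or 3 or CHD4 shRNA replicates 2 or 3 (0.0587 to 0.0683), and in MV4-11 without replicates 1 or 2 of either group (0.051 to 0.0668). In MV4-11 CYTIP, which binds the cytohesins that act on ITGB2, rose by 1.00 (SE 0.22, adjusted p = 0.0162) and RASGRP2, the exchange factor of RAP1 in platelets and neutrophils, by 0.81 (SE 0.19, adjusted p = 0.0227). CYTIP was lost without CHD4 shRNA replicate 1 or scrambled replicate 3 (0.0511 to 0.0548), and RASGRP2 without replicate 2 of either group, CHD4 shRNA replicate 1 or scrambled replicate 3 (0.0593 to 0.105). A further RASGRP2 probe set, 214369_s_at, rose by 0.56 in U937 and 0.82 in MV4-11, while 214367_at and 214368_at did not pass.

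Of 20 signalling kinases and focal contact proteins measured, 2 rose and 0 fell in U937 (median 0.16), and 4 rose and 1 fell in MV4-11 (median 0.17). TGFB1I1, the paxillin relative Hic-5, had the largest change in each line over the 5 lists, read by brightest probe sets, from 7.67 ± 0.13 to 9.23 ± 0.19 in U937 and from 6.22 ± 0.18 to 8.13 ± 0.19 in MV4-11 (SD, n = 3), by limma a rise of 1.56 and 1.91 (SE 0.13, adjusted p = 6.34e-05 and 2.03e-05). VAV1 rose by 0.47 and 0.46 (SE 0.10, adjusted p = 0.0228 and 0.0202). The Src family kinase FGR, which acts below ITGB2 in myeloid cells, rose by 1.09 in MV4-11 (SE 0.21, adjusted p = 0.00853) and had a difference of 0.79 in U937 (adjusted p = 0.0514). PARVB, a focal contact adaptor, fell by 0.56 on the log2 scale in MV4-11 (SE 0.13, adjusted p = 0.0252), and of its 4 other probe sets 37965_at passed, at -0.37. VAV1 was lost in U937 without any scrambled array or CHD4 shRNA replicates 2 or 3 (0.061 to 0.0941), and in MV4-11 without replicate 1 of either group or CHD4 shRNA replicate 2 (0.0733 to 0.0817). FGR was lost without MV4-11 CHD4 shRNA replicate 1 (0.0506), and PARVB without that array or MV4-11 scrambled replicates 2 or 3 (0.0869 to 0.123).

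Of 24 ligands and counter-receptors measured, 2 rose and 0 fell in each line, with medians of 0.10 and -0.06. Complement C3, whose fragment iC3b is bound by ITGAM and ITGAX, rose by 1.14 in U937 (SE 0.23, adjusted p = 0.0152) and by 1.29 in MV4-11 (SE 0.23, adjusted p = 0.00664), and the U937 call was lost without CHD4 shRNA replicates 1 or 2 or scrambled replicates 1 or 3 (0.0528 to 0.0805). ICAM3, a ligand of LFA-1 on leukocytes, rose by 0.88 in U937 (SE 0.12, adjusted p = 0.00113), with a difference of 0.26 in MV4-11 (adjusted p = 0.203). SPP1, osteopontin, rose by 1.58 in MV4-11 (SE 0.42, adjusted p = 0.0396) on a dim probe set at the 17.4 percentile of signal. That call was lost in 9 of 12 fits, those without U937 scrambled replicates 1, 2 or 3, U937 CHD4 shRNA replicate 2, any MV4-11 scrambled array or MV4-11 CHD4 shRNA replicates 1 or 2 (0.0542 to 0.117).

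Of 14 tetraspanins and lateral partners, all measured, 3 rose and 0 fell in U937 (median 0.08), and 2 rose and 1 fell in MV4-11 (median 0.31). CD81, a tetraspanin that pairs with ITGA4 and ITGB1 on leukocytes, rose by 1.53 in U937 (SE 0.34, adjusted p = 0.0218), with a difference of 0.51 in MV4-11 (adjusted p = 0.423). The tetraspanin CD82 rose by 0.67 and 0.63 (SE 0.14, adjusted p = 0.0181 and 0.0193) and TSPAN4 by 0.53 and 0.49 (SE 0.13, adjusted p = 0.0428 in each), with the other TSPAN4 probe set, 209264_s_at, at 0.87 and 0.81. CD47, the integrin-associated protein, fell by 0.66 on the log2 scale in MV4-11 (SE 0.16, adjusted p = 0.0274), and its bright probe set 211075_s_at fell in both lines, by 0.66 and 0.57 on the log2 scale, while 213055_at and 213856_at did not pass. CD81 was lost without U937 scrambled replicates 1 or 3 or CHD4 shRNA replicates 2 or 3 (0.072 to 0.0939), CD82 in U937 without scrambled replicate 3 or CHD4 shRNA replicates 2 or 3 (0.0506 to 0.0813) and in MV4-11 without replicate 1 of either group or CHD4 shRNA replicate 2 (0.0658 to 0.0701). CD47 was lost without MV4-11 scrambled replicates 1 or 3 or CHD4 shRNA replicates 1 or 2 (0.0783 to 0.120). TSPAN4 was lost in 8 of 12 fits in each line. In U937 these were the fits without any CHD4 shRNA array of that line, its scrambled replicates 2 or 3 or any MV4-11 scrambled array (0.0531 to 0.172). In MV4-11 they were the fits without any scrambled array of that line, its CHD4 shRNA replicates 1 or 2, U937 CHD4 shRNA replicates 1 or 2 or U937 scrambled replicate 3 (0.0517 to 0.185).

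**Figure D4:**
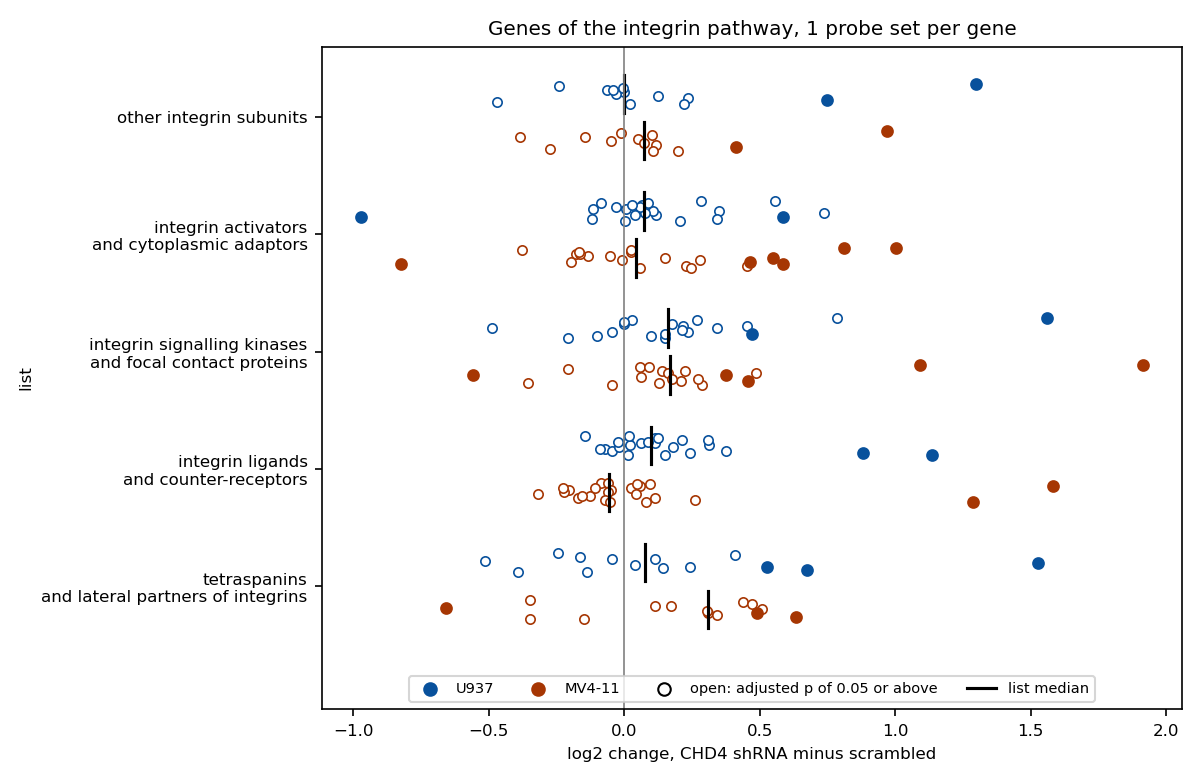
Log2 change with CHD4 shRNA of each measured gene in the 5 integrin pathway lists, 1 probe set per gene, in U937 (upper row of each pair) and MV4-11 (lower row). Filled points had an adjusted p under 0.05, black bars mark list medians, from -0.06 to 0.31, and TGFB1I1 lies farthest right, at 1.56 and 1.91.

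Markers of cell types moved in part with these genes. Of the 16 myeloid markers, CD36, a scavenger receptor of monocytes, changed by 2.48 in U937 and 2.30 in MV4-11, the Fc receptor chain FCER1G by 1.25 and 1.41 and neutrophil elastase, ELANE, by -0.82 and -0.69, all past the limma threshold, and the other 13 did not pass in either line. Each marker was read by its brightest probe set alone, and CD36 had 3. The CHD4 shRNA arrays varied widely for CD36, with an SD of 1.25 in U937 and 0.89 in MV4-11. The summed linear signal of the 16 ran from 27839 to 41766 in U937 scrambled, from 29792 to 34049 in U937 CHD4 shRNA, from 25572 to 26582 in MV4-11 scrambled and from 25532 to 32228 in MV4-11 CHD4 shRNA cells. These sums overlapped in both lines. Such a sum is weighted to the brightest probe sets, here LYZ and ELANE (means of 13.58 and 12.94), so it says little about dimmer markers. FCER1G was kept in all fits without 1 array, CD36 was lost in 3 of 12 in U937 (without any scrambled array, adjusted p = 0.0512 to 0.0652) and in 4 in MV4-11 (without scrambled replicates 1 or 3 or CHD4 shRNA replicates 1 or 2, 0.0572 to 0.0814), and ELANE in 2 (without U937 scrambled replicates 1 or 2, 0.0772 to 0.0785) and in 5 (without any MV4-11 scrambled array or CHD4 shRNA replicates 1 or 2, 0.0556 to 0.101).

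Among the 15 lymphoid markers, CD2 rose by 1.40 and 1.77 and CD79B by 0.60 and 1.34, and PAX5 fell by 0.90 on the log2 scale in U937. In MV4-11 PAX5 had a difference of -0.31 that did not pass (limma adjusted p = 0.197). Of the 15, 12 did not pass in U937 and 13 in MV4-11. The list medians were 0.04 and -0.07, with 10 and 4 of the 15 above 0. Over all genes 2.29% rose and 3.23% fell in U937, and 4.39% and 4.36% in MV4-11. PAX5 had 2 probe sets, of which only the brightest was read. The CD79B call in U937 was lost in 7 of 12 fits, those without any scrambled array of that line, its CHD4 shRNA replicates 2 or 3 or MV4-11 scrambled replicates 1 or 2 (adjusted p = 0.0524 to 0.150). The summed linear signal of the lymphoid list ran from 2943 to 3263 and from 3025 to 3239 in U937, and from 3274 to 3404 and from 3170 to 3529 in MV4-11, scrambled first, again with overlap. NKG7, the brightest lymphoid probe set at a mean of 10.97, weighs most in these sums. Of the fibroblast and epithelial list 0 of 11 passed in either line, and its sums ran from 641 to 755 and from 722 to 811 in U937, and from 698 to 715 and from 697 to 721 in MV4-11. RMA gives no marker a value of 0, and the part of these markers in the integrin changes was not tested.

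The genes most like the 3 integrins with the widest spread were found by the root mean square distance between profiles centred on their own mean over the 12 arrays. For ITGAM 205786_s_at, whose own profile varied by 0.81, the nearest were DZANK1 at a distance of 0.31, AKAP13 at 0.34 and EDEM1 at 0.35. For ITGAL, which varied by 0.70, they were SNX19 at 0.23, GAS6 at 0.23 and GSN at 0.25. For ITGA6 201656_at, which varied by 0.45, they were RUFY3 at 0.088, KNOP1 at 0.12 and CLCN3 at 0.12. RUFY3 followed ITGA6 closely over the groups, with means of 7.42 and 6.78 in U937 and 7.47 and 6.47 in MV4-11, scrambled first. ITGAM's profile was matched less well, at 0.31 against its own 0.81.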

How the data were processed

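Total RNA of 12 cultures was measured on 12 Affymetrix arrays, as biotin-labelled cRNA per the labels' protocols. The authors deposited 1 table of log2 values from RMA, as the tool is named per the submitters' processing notes. The RMA version is not stated, nor if the 12 arrays were normalized as 1 set. RMA equalises the distributions of arrays, which removes any shift common to most genes, and background compresses the differences of dim probe sets.

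Of 22277 probe sets 62 array controls were left out and 22215 tested, of which 19064 carried 1 gene symbol in the platform annotation, 1043 several and 2108 none listed there. Genes were named only from probe sets with 1 symbol.

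One linear model of the 4 groups was fitted in limma 3.58.1 (R 4.3.3) to all 12 arrays, with eBayes without trend (8 residual and 4.86 prior degrees of freedom), Benjamini-Hochberg adjustment over all 22215 probe sets and a threshold of 0.05. All adjusted p-values come from these limma fits. The code was tested on simulated data. The p-values measure the spread between the arrays, and the number of arrays limits the precision. Groups follow the cell line and shRNA fields of the labels.

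The titles number the replicates of each group 1 to 3. In MV4-11, deviations from the group means of same-numbered arrays correlated at 0.432, 0.469 and 0.495 over probe sets. The main fit held no replicate block, so its MV4-11 p-values do not take this likeness into account. Blocks by number were fitted only as alternatives. What a number marks is not given in the labels.

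The integrins, gene lists and marker lists were chosen with earlier results of these data known. List genes are named by a rule: up to 3 rises and 3 falls per list and line, the largest past the threshold, by the probe set with the highest mean. Likeness takes the 3 genes whose group means spread most and the 3 nearest probe sets of each. Alternatives were leaving out the dimmest 25% of probe sets, quantile normalization or median centring, eBayes with trend and robust fitting, 1 or the mean probe set per gene, only the groups compared, replicate blocks, stricter thresholds and leaving out each array. The block in MV4-11 alone was added after seeing the data.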

Additional observations from a re-analysis of the deposited data

How the results depend on the processing

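The count of integrin probe sets past the threshold was 5 in U937 and 4 in MV4-11. In U937 it was 2 at an adjusted p under 0.01, and 2 with an added minimum of 1.5-fold, in both cases the ITGA6 probe sets. Without 1 array it ran from 3 to 6, with 3 without U937 CHD4 shRNA replicates 1, 2 or 3, U937 scrambled replicate 3 or MV4-11 scrambled replicate 2. In MV4-11 it was 9 when replicate numbers were a block within each line, 7 when they were a block for MV4-11 only, and from 4 to 6 without 1 array. Over all probe sets these blocks gave 3700 and 2912 MV4-11 calls, beside 1659 without a block. In U937 same-numbered arrays correlated at 0.012, 0.344 and 0.360. Replicates 2 and 3 correlated best with their own number, but scrambled replicate 1 correlated best with CHD4 shRNA replicate 2, at 0.174. Whether U937 arrays are paired by number is therefore not settled. For U937 the block within each line gave 6 and the shared block 4. Over all probe sets the block within each line gave 2151 U937 calls, beside 1002 without a block. The difference between the lines had 0 past the threshold under each alternative. Between the scrambled lines 3 passed, and 2 to 4 without 1 array. Over all probe sets 988 passed there, and 421 to 1280 without 1 array. Between the CHD4 shRNA lines 2 passed, but 0 with only the groups compared, 0 at an adjusted p under 0.01, 1 with the 1.5-fold minimum and 0 to 3 without 1 array. Over all probe sets 1232 passed there, 452 with only the groups compared and 424 to 1788 without 1 array. No called integrin value changed direction. Of 90 values 23 changed sign under some alternative without being past the threshold on either side, and the largest of them was 0.18.

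Signals near background limit the 4 dim ITGB1 probe sets. With the block in MV4-11 alone the named MV4-11 list genes all stayed past the threshold, while the falls among activators and adaptors went from 1 to 2 and those among kinases and focal contact proteins from 1 to 2, with their rises from 4 to 5. Without 1 array the MV4-11 rises among activators and adaptors ran from 1 to 6 and among kinases and focal contact proteins from 1 to 6, among tetraspanins and partners from 0 to 3, among other subunits from 0 to 2 and among ligands from 1 to 2. The U937 rises ran from 0 to 3 for activators and adaptors, 1 to 3 for kinases and focal contact proteins, 1 to 3 for ligands, 0 to 3 for tetraspanins and partners and 2 to 2 for other subunits.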
